A study of Caenorhabditis elegans with 2 samples.

Results

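The regions described here are 135 peaks at piRNA genes of chromosome IV, taken from chromatin immunoprecipitation followed by sequencing (ChIP-seq) of the T-box transcription factor TBX-9 in the nematode Caenorhabditis elegans. They came from the pooled relaxed peak list, a permissive list of 30000 peaks and background regions that the authors made from both libraries on the ce11 build. A peak was taken when its summit lay on chromosome IV within 100 bp of a gene annotated as piRNA, more than 500 bp from any protein-coding transcript start and more than 250 bp from tRNA, snoRNA, snRNA and miRNA genes. The pooled list held 4589 peaks on chromosome IV, of which 3048 met the exclusions. The 2913 others among these form the comparison. A further 30 peaks lay at a piRNA gene but were left out, 25 of them for a coding start and 6 for a small RNA gene, with 1 counted under both.

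The worms were whole young adults of mixed sex of strain OP636, collected 63 hours after synchronization as starved L1 larvae. The strain carries the unc-119 allele tm4063 and the integrated transgene wgIs636, which expresses TBX-9 with a C-terminal GFP-FLAG tag, and the immunoprecipitation is described as done with an antibody against GFP, although the antibody field of the labels names the target, tbx-9. The 2 libraries are biological replicates 1 and 2 of this 1 group. They come from 1 transgenic line, no second condition was part of the series, and the control named in the labels was not analysed here.

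piRNAs of C. elegans, also called 21U-RNAs, are short germline RNAs that begin with uridine and guide the Piwi protein PRG-1 to foreign and self transcripts. Most are transcribed one by one by RNA polymerase II from tiny units packed into broad clusters on chromosome IV, in introns and between genes. A conserved upstream element, the Ruby motif, with the core CTGTTTCA, lies a short way before most of these units, and the proteins PRDE-1, SNPC-4, TOFU-4 and TOFU-5 act at it. TBX-9 is known for its part in embryonic morphogenesis, not for a part in this pathway.

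The Ensembl annotation holds 15363 piRNA genes of 21 bases each, and 14714 of them, 95.8%, lie on chromosome IV. They were concentrated in 54 bins of 100 kb with at least 50 piRNA genes each, called piRNA-dense bins here. Of these, 17 lie between 4800001 and 6600000 with 2614 piRNA genes, and 37 lie between 13600001 and 17300000 with 11510. Of the peaks, 39 lay in the left cluster, 84 in the right one and 12 elsewhere on the chromosome, a spread that the choice by piRNA gene largely sets.

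The units at 6 of the 20 strongest peaks are examples of the sequences near these summits. Only the summits at 21ur-14659 and 21ur-5802 lie within the stretch shown. The others lie past its 3′ end, such as that of 21ur-12255, 70 bp from the piRNA gene. Each line runs 5′ to 3′ along the piRNA strand on ce11. It gives 60 upstream bases in lower case and then the 21 bases of the piRNA gene in capitals, and an upstream CTGTTTCA is also in capitals. The first 2 are the strongest peaks and have no such core, and the other 4 have it. The 6 do not show how common the core is: among the 20 strongest it stood before 7 of the nearest piRNA genes.
21ur-14659 (chrIV:7240636-7240716, minus): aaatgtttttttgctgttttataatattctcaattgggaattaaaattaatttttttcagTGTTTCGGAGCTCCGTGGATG
21ur-12255 (chrIV:7397698-7397778, minus): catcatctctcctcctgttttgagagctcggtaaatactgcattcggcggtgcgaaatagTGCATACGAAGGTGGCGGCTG
21ur-2516 (chrIV:15690962-15691042, plus): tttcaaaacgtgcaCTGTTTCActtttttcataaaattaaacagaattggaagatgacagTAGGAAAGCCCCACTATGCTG
21ur-12750 (chrIV:14953837-14953917, plus): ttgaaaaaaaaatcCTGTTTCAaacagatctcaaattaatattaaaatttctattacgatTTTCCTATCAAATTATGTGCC
21ur-5802 (chrIV:16611114-16611194, minus): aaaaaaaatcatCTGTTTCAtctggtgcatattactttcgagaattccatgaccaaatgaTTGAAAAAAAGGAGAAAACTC
21ur-14936 (chrIV:14800669-14800749, plus): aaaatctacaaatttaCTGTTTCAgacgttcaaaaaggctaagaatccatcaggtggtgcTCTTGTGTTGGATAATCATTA

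Summits were sparse at piRNA genes. Of the 3048 eligible chromosome IV summits, 135 lay within 100 bp of a piRNA gene, 4.43% (95% Wilson interval 3.75 to 5.22), whereas 13.5% of the eligible bases lay there, a ratio of 0.328. The replicate lists gave the same direction with different sizes. In replicate 1, 198 of 2745 summits lay at piRNA genes, 7.21% (6.30 to 8.24) and a ratio of 0.534. In replicate 2, 115 of 3097 did, 3.71% (3.10 to 4.44) and a ratio of 0.275. These intervals cover counting error only, and peaks are not replicates of the animals. The spread between libraries is large here, since the ratio of replicate 1 lies outside the interval of the pooled ratio, 0.278 to 0.386.

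The scarcity held inside the clusters. In the left cluster 15.5% (11.6 to 20.5) of 251 eligible summits lay at piRNA genes, against 26.7% of bases. In the right cluster 19.6% (16.1 to 23.7) of 428 did, against 44.3% of bases. Over both clusters the ratio was 0.463, and outside them, with 12 summits of 2369, it was 0.507. On the other 5 nuclear chromosomes, which hold 649 piRNA genes, 23 of 17666 eligible summits lay at one, a ratio of 0.857 whose interval of 0.571 to 1.29 includes 1.

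Summits were denser farther from piRNA genes. In the piRNA-dense bins the pooled list had 68.6 summits per Mb inside piRNA genes, 59.0 at 1 to 50 bp and 89.0 at 51 to 100 bp. It had 119.6 per Mb at 101 to 200 bp, 181.7 at 201 to 500 bp, 203.5 at 501 to 1000 bp and 309.9 beyond 1000 bp. Replicate 2 ran the same way, with 59.0 per Mb at 1 to 50 bp and 312.2 beyond 1000 bp. Replicate 1 was flatter, with 106.5 and 254.3. The exact Poisson intervals of the nearest and farthest of these classes do not overlap in any of the 3 lists.

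**Figure D1:**
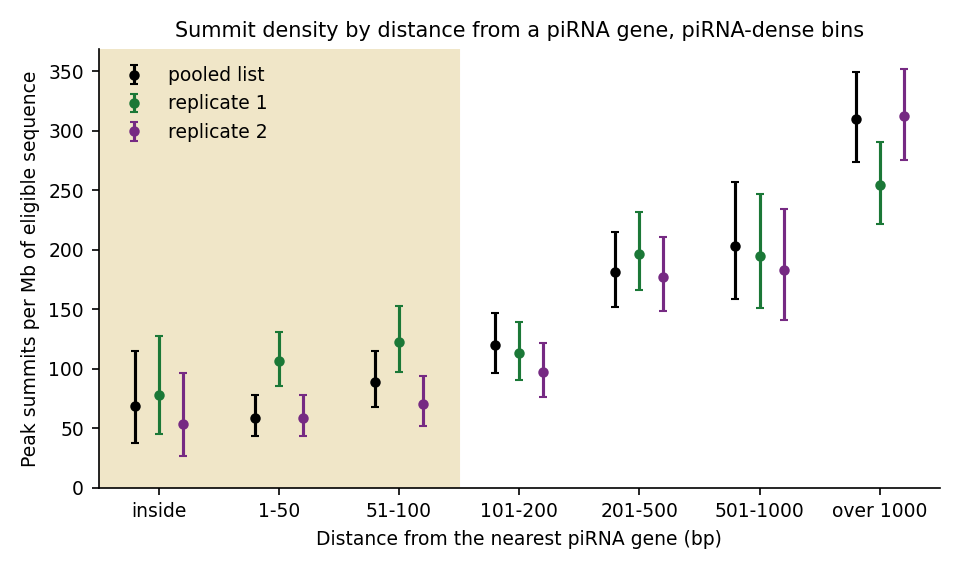
Peak summits per Mb of eligible sequence in the piRNA-dense bins of chromosome IV, by distance from the nearest piRNA gene, for the pooled list and each replicate list; bars are exact Poisson 95% intervals and the shaded classes are those within 100 bp. Densities within 50 bp lie at 106.5 per Mb or less and those beyond 1000 bp at 254.3 or more.

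Base composition moved with this pattern. In the piRNA-dense bins, eligible bases at piRNA genes had a mean GC content of 28.5% in the 201-base window around them, against 34.6% at other eligible bases. Summits were rarer in AT-rich sequence whether or not a piRNA gene was near. Away from piRNA genes the pooled list had 28.4 summits per Mb in windows of 20 to 25% GC and 617.2 per Mb in windows of 45% or more. When summits at piRNA genes were set against the rate of other bases in the same GC band, the difference narrowed. The pooled list had 123 summits at piRNA genes in these bins, against 356.8 at the overall rate of other bases, a ratio of 0.345 (0.287 to 0.411), and 155.2 at the rates of the 7 GC bands, a ratio of 0.793 (0.659 to 0.946).

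In each replicate list the GC-standardised ratio in the piRNA-dense bins was close to 1. Replicate 1 had 188 summits at piRNA genes, against 188.4 at the GC-band rates, a ratio of 0.998 (0.860 to 1.15). Replicate 2 had 108, against 108.2, a ratio of 0.998 (0.819 to 1.20). The single bands of replicate 2 did not all lie near 1: the ratio was 1.46 at 25 to 30% GC, with 31 summits at piRNA genes and 16 at other bases, and 0.661 at 35 to 40% GC, with 21 and 147. Taken over the whole chromosome, the GC-standardised ratios were 0.647 (0.542 to 0.765) for the pool, 0.850 (0.736 to 0.977) for replicate 1 and 0.611 (0.505 to 0.734) for replicate 2. Unstandardised, the same ratios to the rate of other bases were 0.297, 0.498 and 0.247. Standardising by annotation alone (intergenic, intron, coding-gene exon) gave a pooled ratio of 0.423 (0.352 to 0.505) in the dense bins. By GC and annotation together the dense-bin ratio was 0.837 (0.695 to 0.998) for the pool. It was 1.05 (0.907 to 1.21) for replicate 1 and 1.06 (0.866 to 1.27) for replicate 2.

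**Figure D2:**
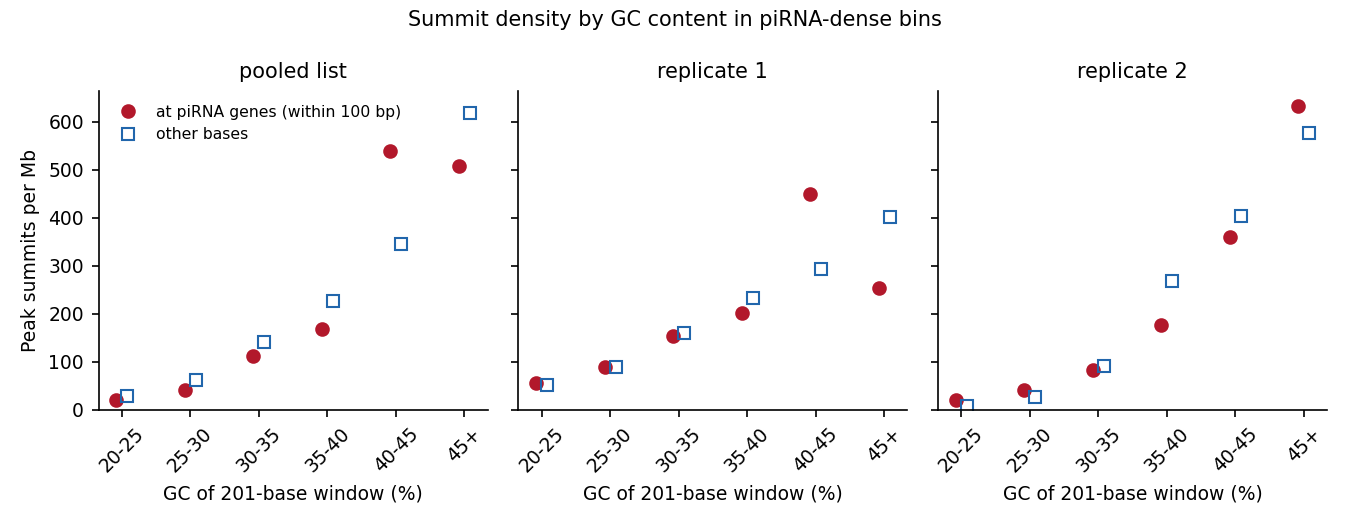
Peak summits per Mb in the piRNA-dense bins by GC content of the 201-base window, at piRNA genes (filled circles) and at other bases (open squares), for the pooled list, replicate 1 and replicate 2. Up to 40% GC both kinds of base hold more summits in each higher band; in the pooled list other bases run between 28.4 per Mb at 20 to 25% GC and 617.2 at 45% or more. The band under 20% GC held no summit.

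The peaks at piRNA genes were weak ones. Their pooled signal values, which are the authors' own and whose scaling is not stated, ran between 18.1 and 63.3 with a median of 22.6 (95% interval of the median 21.6 to 24.1), against a range of 18.1 to 150.7 and a median of 25.1 (24.7 to 25.4) for the other chromosome IV peaks. The lower quartile, 19.9 against 21.1, and the upper quartile, 27.9 against 31.5, lay lower as well. By rank in the pooled list, where 1 is strongest, the median was 19489 against 15026. The deposited q value had a median of 0.818, against 0.730 for the others. It was 0.0137 and 0.0166 at the 2 strongest peaks at piRNA genes and 0.0965 or more at the rest. Of the 135 peaks, 5 stood among the strongest 10% of the list, 3.70% (1.59 to 8.38), against 9.10% (8.11 to 10.2) of the others and 10% of the list as a whole. Of the other chromosome IV peaks, 36 were stronger than the strongest peak at a piRNA gene.

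**Figure D3:**
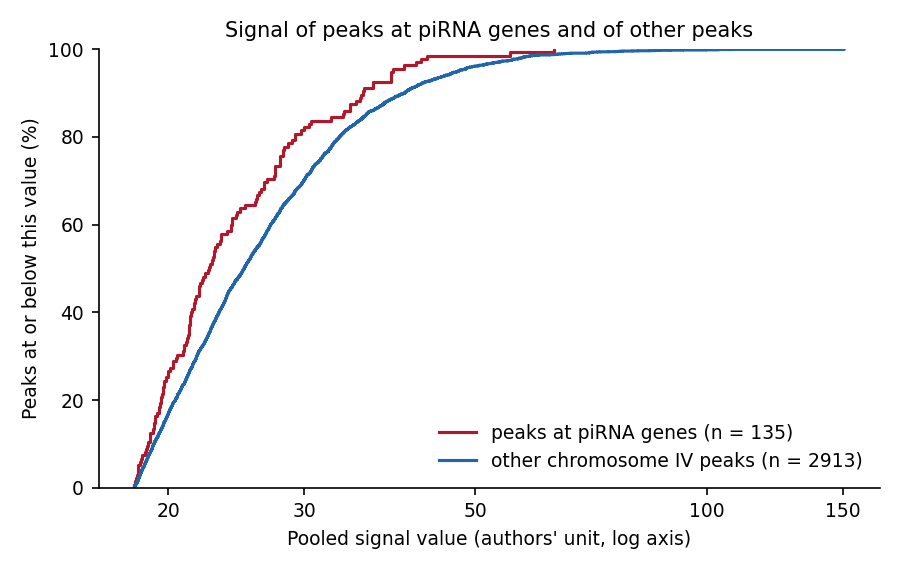
Share of peaks at or below each pooled signal value (log axis), for the 135 peaks at piRNA genes and the 2913 other chromosome IV peaks under the same exclusions. The curve of the piRNA peaks lies to the left over most of its range, with medians of 22.6 and 25.1.

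Within GC bands the signal differed less at the AT-rich end. Below 25% GC the median was 22.7 for 8 peaks at piRNA genes and 22.9 for 30 others. At 30 to 35% GC it was 22.3 for 47 and 23.9 for 489, and at 40% or more it was 22.7 for 24 and 26.0 for 1479. The piRNA peaks thus kept nearly the same median in each of the 5 bands, while that of the other peaks was higher at higher GC. The last band has no upper limit, and its windows reached 51.7% GC at piRNA peaks and 72.6% at the others. Its 2 medians therefore compare peaks of unlike GC range. Across the 135 peaks, Spearman's rho of GC and pooled signal was 0.068, and across the 2913 others 0.139. These are descriptions across sites that share 2 libraries.

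None of the 135 overlapped an optimal peak past the irreproducible discovery rate (IDR) threshold, the authors' list of 169 reproducible peaks with 29 on chromosome IV. A count of 0 allows a share of up to 2.22% by the rule of 3 counts of the total, and 2.77% by the Wilson interval, both above the 0.412% (12 of 2913) of the other chromosome IV peaks and the 0.737% of the whole pooled list, so a lower share could not be seen with this number of peaks. No piRNA gene of chromosome IV had an IDR summit within 100 bp, with or without the exclusions.

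Support in the separate libraries was uneven. A peak of the replicate 1 list overlapped 93 of the 135, 68.9% (60.6 to 76.1), against 67.0% (65.2 to 68.7) of the other chromosome IV peaks and 67.4% of the pooled list. A peak of the replicate 2 list overlapped 63, 46.7% (38.5 to 55.1), against 62.7% (60.9 to 64.5) of the others and 63.9% of the pooled list. Both lists had a peak at 35, 25.9% (19.3 to 33.9), against 38.0% (36.2 to 39.7) of the others and 39.5% of the pooled list. In the piRNA-dense bins alone the shares in both were 26.0% (19.1 to 34.4) and 36.2% (32.3 to 40.2). By GC content the share in both lists did not always run this way. It was 37.5% against 30% below 25% GC and 45.8% against 41.2% at 40% or more, with 8 and 24 piRNA peaks. In the bands between, it was 21.2% against 27.4%, 17.0% against 34.2% and 26.1% against 37.0%. Replicate 1 alone held 58 of the piRNA peaks, 43.0% (34.9 to 51.4), against 29.0% of the others. Replicate 2 alone held 28, 20.7% (14.8 to 28.3) against 24.8%, and neither list held 14, 10.4% (6.28 to 16.7) against 8.27%.

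The 35 found in both rest on 31 distinct pairs of replicate peaks, since some neighbouring pooled peaks overlap the same ones. Over the 31 pairs, Spearman's rho of the replicate signal values was 0.257, against 0.214 over 961 distinct pairs of the other peaks, each a description across sites. Median ranks were 11315 in replicate 1 and 11754 in replicate 2, each over the piRNA peaks that its list held, against 9970 and 10475 for the other peaks. At the level of genes, 219 of the 14714 piRNA genes had a pooled summit within 100 bp before exclusions, 1.49% (1.31 to 1.70). The counts were 337 in replicate 1 and 176 in replicate 2, and 19 genes had a summit in both, 0.129%. The last count asks for a summit within 100 bp in each list, not for an overlap of peaks as above. The same shares at other positions were not counted, so these gene counts have no background beside them.

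**Figure D4:**
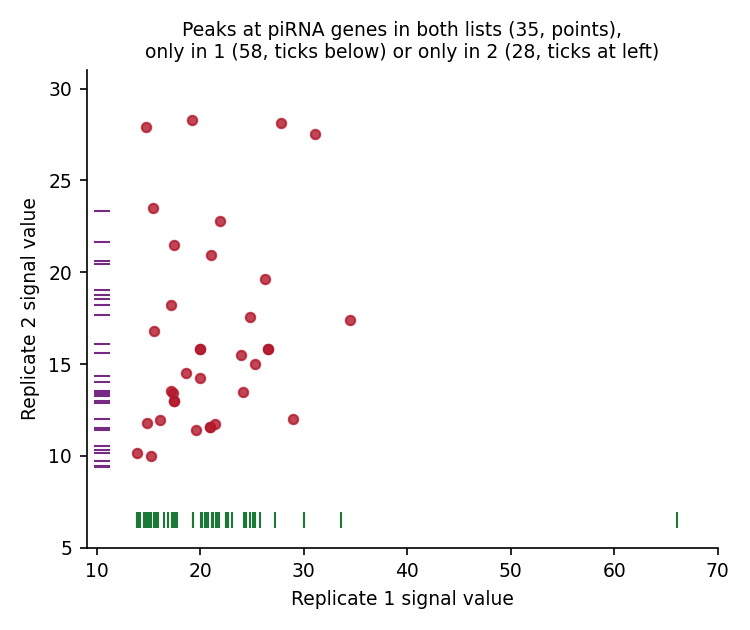
Signal value in replicate 1 (horizontal) and replicate 2 (vertical) for the 35 peaks at piRNA genes with a peak in both lists, which fall on 31 distinct points; ticks along the bottom are the 58 found in replicate 1 only and ticks at the left the 28 found in replicate 2 only. The value of 66.1 in replicate 1, the highest, has no counterpart in replicate 2.

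The strongest peak lay on 21ur-14659, outside the dense clusters, in an exon of gstk-2, of the kappa class of glutathione transferases. Its pooled signal was 63.3 at rank 651, and its replicate 1 value of 66.1 stood at rank 110 of 25659. Replicate 2 had no peak there. The next, with its summit 70 bp from 21ur-12255, lay between coding genes in the noncoding RNA genes T12B3.7 and C48A7.9. It had a pooled value of 55.5 at rank 995, with 31.1 in replicate 1 and 27.5 in replicate 2. Among all 135 it had the best rank in its weaker library, 2007 in replicate 1.

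The other 18 of the 20 strongest had pooled values between 33.8 and 43.3. Those with the best ranks in both libraries after 21ur-12255 were 21ur-4820, 21ur-2516, 21ur-3610 and 21ur-12556. 21ur-4820, in an intron of Y105C5B.5, had 40.4 in the pool, 27.8 in replicate 1 and 28.1 in replicate 2. 21ur-2516, in an intron of Y105C5A.15, had 43.3, 26.2 and 19.6. In these 2 and at 21ur-3610, in an exon of srlf-26, with 41.9, 24.8 and 17.6, the 2 libraries ranked the site within the first 6229 peaks.

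21ur-12556, in an exon of memi-3, a gene of the oocyte meiosis-to-mitosis transition, had 35.5 in the pool, 34.5 in replicate 1 and 17.4 in replicate 2. At other sites the libraries were further apart. 21ur-12750, in an intron of Y41E3.22, had 38.9 in the pool, with 19.2 in replicate 1 and the highest replicate 2 value of all, 28.3. 21ur-5238, between genes, had 38.9 in the pool, 28.9 in replicate 1 and 12 in replicate 2, so each of these sites stood high in a different library. 21ur-8016, in an intron of the ankyrin gene unc-44, had 34.5 in the pool, 15.4 in replicate 1 and 23.5 in replicate 2.

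The peaks at 21ur-2823 (39.1 in the pool), 21ur-9213 (38.9), 21ur-10693 (36.9), 21ur-4953 (36.9, in an intron of the pheromone receptor gene daf-38), 21ur-1556 (35.8) and 21ur-14936 (34.4) also had a peak in each library. Those at 21ur-4868 (35.9), 21ur-5802 (35.6) and 21ur-8838 (33.8) had one in replicate 1 only. Those at 21ur-1045 (42.6) and at 21ur-13958 (35.1), which lies in the lincRNA gene linc-135, had one in replicate 2 only. In all, 14 of the 20 strongest had a peak in both libraries, against 35 of the 135, which include these 20. The 20 were picked by a pooled signal made from both libraries. The same share for other peaks of like strength was not counted.

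Most of the summits lay in noncoding parts of the clusters. Of the 135, 50 lay between coding genes, 61 in introns and 24 in exons of coding genes, 37.0%, 45.2% and 17.8%. Among the other chromosome IV peaks the shares were 28.9%, 29.8% and 41.3%. The bases that the rule could take lie mostly outside exons too. In the piRNA-dense bins exons made up 6.0% of the eligible bases at piRNA genes and 16.3% (10.8 to 23.8) of the summits there, while intergenic sequence made up 63.3% of these bases and 36.6% (28.6 to 45.4) of the summits. Introns made up 30.7% of the bases and 47.2% (38.6 to 55.9) of the summits. Away from piRNA genes in these bins, exons made up 22.0% of the bases and 41.2% of the summits. Intergenic sequence there made up 51.1% and 32.0%, and introns 27.0% and 26.8%. The exon and intergenic shares thus ran the same way at both kinds of base. Median signal hardly differed between the 3 contexts, 22.5 between genes, 22.6 in introns and 22.4 in exons. A peak in both libraries was found for 8 of the 50 intergenic sites, 21 of the 61 intronic ones and 6 of the 24 exonic ones. The shares were 16% against 36.5% of the other peaks between genes, 34.4% against 34.1% in introns and 25% against 41.8% in exons, so in introns, the context with the most piRNA peaks, they were nearly equal.

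The 85 summits inside coding genes fell in 64 genes, of which 53 had 1. Y105C5A.15 (chrIV:15689201-15722553), with 118 piRNA genes in its 33.4 kb, had 9, all in introns, with signal values of 18.9 to 43.3 and 2 found in both libraries. semo-1 (chrIV:14051200-14056717), which encodes a methanethiol oxidase of the selenium-binding protein family, had 5 in 5.52 kb, with values of 20.4 to 38.9. Of these, 4 were found in both libraries, but they rest on 2 pairs of replicate peaks, each overlapped by 2 pooled peaks. Long genes with many piRNA genes did not all carry strong peaks: kcc-2, a potassium-chloride cotransporter gene with 98 piRNA genes inside it, had 2 peaks of 18.1 and 18.8, and neither was found in both libraries. The forkhead gene fkh-7, with 78 piRNA genes, had 2 peaks of 26.6 and 28.2.

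Summits showed no concentration on the transcription unit itself. Relative to the 5′ end of the nearest piRNA, 55 summits lay upstream, 17 within the 21 bases and 63 beyond the 3′ end. In the stretch of 60 to 31 bp upstream, where the motif core lies, there were 17 summits, 66.3 per Mb of eligible bases with this position (exact Poisson interval 38.6 to 106.2). The density was 59.9 per Mb in the 30 bp before the start, 79.8 within the piRNA and 119.3 (81.0 to 169.3) at 81 to 120 bp past the 5′ end, the part farthest on the downstream side. The density was lowest at 21 to 50 bp past the 5′ end, 53.7 per Mb. All of these intervals overlap. The 31 summits at 81 to 120 bp were nevertheless 23.0% (Wilson interval 16.7 to 30.7) of the 135, against 14.4% of the eligible bases.

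**Figure D5:**
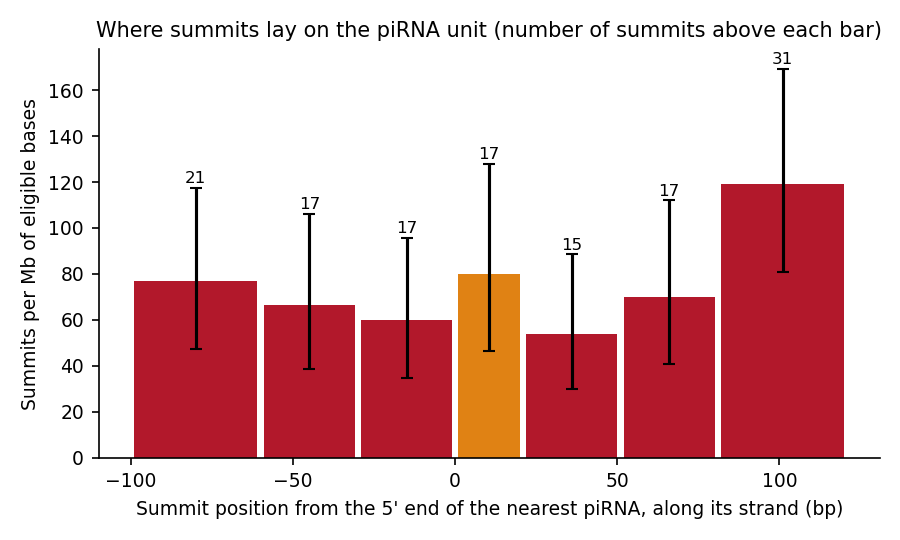
Summits per Mb of eligible bases by position from the 5′ end of the nearest piRNA, along its strand, for the 135 peaks; the orange bar is the piRNA itself, lines are exact Poisson 95% intervals and the number over each bar is the count of summits. The 17 summits at 60 to 31 bp upstream, where the motif core lies, give 66.3 per Mb and do not stand above the other classes.

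The piRNA genes under the peaks carried the upstream motif about as often as piRNA genes elsewhere. CTGTTTCA was searched on the gene's strand in the 60 bases before the piRNA, and consecutive windows of that length over chromosome IV hold it in 0.893%. Among the 185 piRNA genes within 100 bp of one of the 135 summits, 62 had it, 33.5% (27.1 to 40.6), against 34.7% (33.9 to 35.5) of the 12825 other piRNA genes that start in eligible sequence. The shorter core GTTTCA, which overlaps the longer one, stood before 62.2% of the 185 and 64.7% of all chromosome IV piRNA genes. Where the full core was present at the 185, it ended 36 to 43 bases before the piRNA, with a median of 38, the same median as over the chromosome. In the 20 strongest peaks, 7 of the nearest piRNA genes had it.

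Around the summits, CTGTTTCA stood on either strand within 100 bp of 35 of the 135, 25.9% (19.3 to 33.9), against 1.85% (1.42 to 2.41) of the other peaks and 6.18% of all consecutive 201-base windows of the chromosome. The rule places the peaks beside piRNA genes and the others away from them, so this difference is largely built in. The T-box site AGGTGTGA was in 0 of the 135 windows on either strand, which allows a share of up to 2.22% by the same rule of 3 counts, and in 0.412% of the other windows. Its inner part GGTGTG, which AGGTGTGA contains, was in 1 window, 0.741% (0.131 to 4.08), against 5.36% (4.59 to 6.23) of the others. The median GC content of these windows was 32.8%, against 40.3%, and the part of base composition in these counts was not tested.

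Of the 135 summits, 94 had 1 piRNA gene within 100 bp, 69.6%, while 35 had 2, 2 had 3 and 4 had 4. The same shares for eligible bases near piRNA genes were not counted, so these numbers may only reflect the spacing of the genes. Of those with 4, the strongest were at 21ur-1649 (signal 22.9), 21ur-653 (21.9) and 21ur-4385 (21.2), none with a peak in both libraries. None of the 6 peaks with 3 or 4 piRNA genes was among the 20 strongest, of which 14, 70%, had 1. At the edge of the rule, the summits 99 bp from 21ur-5970, 21ur-6499 and 21ur-15396 had signal values of 27.9, 26.6 and 21.2, and those just outside, 102, 103 and 104 bp from 21ur-1667, 21ur-9553 and 21ur-10813, had 18.5, 18.2 and 32.5.

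Coding genes of the pathway, with some of related small RNA silencing such as csr-1, were looked at by their own starts. Of 24 listed names, 21 were found in the annotation, and 17 of these had a pooled relaxed summit within 1000 bp of a start, 81.0%, against 51.4% of all protein-coding genes. None had an IDR summit there, against 0.501% of all. prg-1, the Piwi gene, had a best peak of 33.2 at rank 6582. snpc-4, which encodes a factor at the motif, had 31.4, and prde-1, also active there, 22.2. tofu-6, which acts in piRNA precursor processing, had 45.9 at rank 1992, the highest of the list, followed by tofu-1 with 43.8 and erh-2 with 43.1. henn-1, which methylates the 3′ ends of piRNAs, had 34.1, and parn-1, which trims them, 20.5. tofu-2, pid-3, unc-130 and mut-16 had none.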

How the data were processed

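Peak lists were used as the authors deposited them. Read alignments and a control gave the relaxed lists, and these gave the IDR list, per the deposited text files. Aligner and peak caller: not given in the sources used here. Each peak has the signal value that the authors deposited, and the deposited −log10 q follows the narrowPeak format (pooled q of 0.0137 to 0.955). No read depth is part of these files, so the depth is unknown. The lists held 30000 pooled, 25659 replicate 1, 30000 replicate 2 and 169 IDR peaks, nearly all 390 bp wide.

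Summits were the peak start plus the deposited offset, counted from 1. Genes came from Ensembl release 115 and sequence from RefSeq, both of WBcel235 (ce11 in other naming); no peak ran past a chromosome end. The ce10 lists were not used. Eligible bases are chromosome IV positions that meet the same exclusions. Shares have 95% Wilson intervals, medians intervals from order statistics and densities exact Poisson intervals. All cover counting error only. With 1 group of 2 libraries no test between conditions was possible, and none was made between kinds of peak. GC bands were 5 percentage points wide between 20% and 45%, with 1 band below and 1 above. An overlap was at least 1 bp, and the strongest overlapping replicate peak was used. The calculation was tested on simulated summits.

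The regions and lists were chosen with earlier results of these data known. Named were the 20 strongest peaks by their nearest piRNA gene, any at an IDR peak, the 5 best placed in both replicates, the 3 with most piRNA genes and the 3 on each side of the 100 bp limit; genes with the most summits in them and kcc-2 and fkh-7 were named after their values were seen. Python 3.11.15, numpy 2.4.6, scipy 1.17.1, pandas 2.3.3 and matplotlib 3.10.9 were used.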

Additional observations from a re-analysis of the deposited data

How the results depend on the processing

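Of 72 alternatives, 54 left a value within the interval of the main one, 18 moved it further and 0 reversed a difference; the cause of a move was not tested unless the construction shows it. Of 5 differences whose interval left out 0, 7 of 48 alternatives gave an interval that included it. For the strongest 10% these were a limit of 50 bp (-7.75 to 2.64), an exclusion of 1000 bp (-6.48 to 2.44), the stronger 50% (-14.2 to 3.66), replicate 2 alone (-7.05 to 1.75) and the strongest 5% (-3.82 to 1.31). In the stronger 50%, with fewer peaks, they were the share in both replicates (-23.3 to 4.13) and the median signal (-3.40 to 2.93). The midpoint in place of the summit changed no value, since nearly all summits are midpoints. The ratio of the share of summits to the share of bases at piRNA genes was 0.404 with a limit of 200 bp, 0.242 in the stronger 50% of the list and 0.463 in the dense bins alone, an alternative chosen after seeing the data. With 1 replicate list alone it was 0.275 to 0.534. Standardised rates, also chosen after seeing the data, were 0.793 by GC, 0.423 by annotation and 0.837 by both, against 0.345. With 1 replicate alone the unstandardised ratios were 0.317 to 0.572 and the GC-standardised ones 0.998 each. Standardised by GC and annotation together, which was not among the 72 alternatives, they were 1.05 for replicate 1 and 1.06 for replicate 2. Both lie above 1, where the main ratio lies below, and both intervals include 1. The IDR difference was -0.95 percentage points with no exclusion and -0.76 in the stronger 50%, where that in the strongest 10% was -8.05. The motif difference was 32.3 points with TGTTTC and 44.2 in windows of 200 bp, which by construction hold more matches. The GC difference was -5.99 points in windows of 200 bp. With 1 replicate alone it was -8.46 to -6.97, the motif difference 25.5 to 27.6, the signal difference -1.07 to -1.06 on the replicate scales and the difference in the strongest 10% -4.94 to -4.04.

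No paired analysis was possible because the libraries form 1 group. With 135 peaks, a count of 0 allows shares of up to 2.22% by the rule of 3 counts.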
